A study of Rattus norvegicus with 6 samples.

Results

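The genes described here are Hif1a and 6 genes of glycolysis, Slc2a1, Hk2, Gapdh, Eno1, Pkm and Ldha, in macrophages sorted from the infarcted rat heart. They were chosen by their Ensembl identifiers, which make up 7 of the 33884 genes in the count table, and all 7 were present and had enough reads to be tested. The gene names belong to the definition of the set, since the count table itself gives identifiers without names. CD45+HIS36+ cells were sorted from the left ventricle of Sprague Dawley rats 72 h after myocardial infarction (MI), and their RNA was sequenced in 3 WT and 3 Dusp6-deficient libraries. CD45 is carried on the surface of leukocytes, and the antibody HIS36 binds rat macrophages. Per the study's methods, the rats were age-matched males, and their MI came from a permanent ligation of the left anterior descending artery. The Dusp6-deficient rats carry a CRISPR/Cas9-made insertion of an adenine in exon 1 of Dusp6, which gives a premature stop codon in the phosphatase that acts on ERK1/2. The mutation removes no exon, so the amount of Dusp6 mRNA need not show the genotype. Dusp6 mRNA was not analysed here, because identifiers could not be paired with symbols. The genotype of each library is therefore as labelled and was not checked. The sample labels do not say that the libraries come from separate rats. Each was counted as a separate sample, and p-values therefore measure the spread between these libraries, which may be technical in part.

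Glycolysis breaks glucose down to pyruvate in the cytosol, and lactate dehydrogenase turns pyruvate into lactate when little of it is oxidised in mitochondria. Macrophages that enter injured, poorly perfused tissue rely on this pathway, and inflammatory activation is known to raise it. HIF-1α, encoded by Hif1a, is the oxygen-regulated part of the transcription factor HIF-1, whose known target genes include all 6 glycolysis genes described here. HIF-1α is controlled to a large degree by protein breakdown, so the mRNA of Hif1a is not a measure of its activity.

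The total number of reads counted on genes was 15806508, 16467086 and 12089585 in WT replicates 1, 2 and 3. It was 17274938, 14183096 and 14124625 in Dusp6-deficient replicates 1, 2 and 3. Values per library are given as CPM, read counts relative to the library size after TMM scaling. Factors of this scaling were 1.07, 1.05 and 1.14 in the WT libraries and 1.01, 0.874 and 0.885 in the Dusp6-deficient ones, so they differed between the genotypes without overlap. One library stood apart from its group. On the first principal component of log2 CPM, which held 49.2% of the variance, Dusp6-deficient replicate 1 had a score of 4.48, whereas replicates 2 and 3 had 65.0 and 53.5 and the WT libraries lay between -49.7 and -35.9. Its label was not checked either, and fold changes are also given without this library. Markers of macrophages and of other cell types, which would test the sort, were not analysed here, because the reference table gave a symbol for 0 of the 33884 identifiers. For the same reason the other genes of glycolysis and of the HIF pathway were not analysed here. In such bulk samples, fewer cells of a type and less RNA per cell cannot be told apart.

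Of the 7 genes, the 2 at the entry of the pathway, Slc2a1 and Hk2, fell in Dusp6-deficient macrophages, 2.89-fold and 2.13-fold, and their CPM did not overlap between the genotypes. Neither was called in 5 of the 6 fits that leave out 1 library, where the adjusted p in edgeR was between 0.0564 and 0.161. The later enzymes did not pass the test. Gapdh was higher in all 3 Dusp6-deficient libraries than in any WT library, and Eno1, Pkm, Ldha and Hif1a overlapped between the genotypes. A gene was called when its adjusted p (edgeR's quasi-likelihood test with Benjamini-Hochberg adjustment over 12756 genes) was under 0.05 and its log2 fold change was over 1 in size. By this rule 2 of the 7 genes were called lower, against 2.16% of all genes tested, and 0 were called higher, against 3.47% of all genes. The 7 genes were chosen with earlier results of these data known, so the shares given here are a description and not a test of the set. With the adjusted p alone the counts were again 2 lower and 0 higher, against 2.67% and 5.55% of all genes. At an unadjusted p under 0.05 in edgeR, 3 of the 7 genes passed, Slc2a1, Hk2 and Gapdh (p of 0.00743 from the fit over all genes), against 30.6% of all genes tested. DESeq2 also called 0 of the 7 genes higher by both thresholds, against 3.43% of the 18721 genes it tested. Those include genes of low count that the edgeR fit left out, so its shares are not directly comparable with those of edgeR. The CPM was lower without overlap for 2 of the 7 genes and higher without overlap for 1, against 16.3% and 17.8% of all genes. The median log2 fold change of the 7 genes was -0.33, against 0.024 over all genes tested, with 4 genes below 0 and 3 above.

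**Figure D1:**
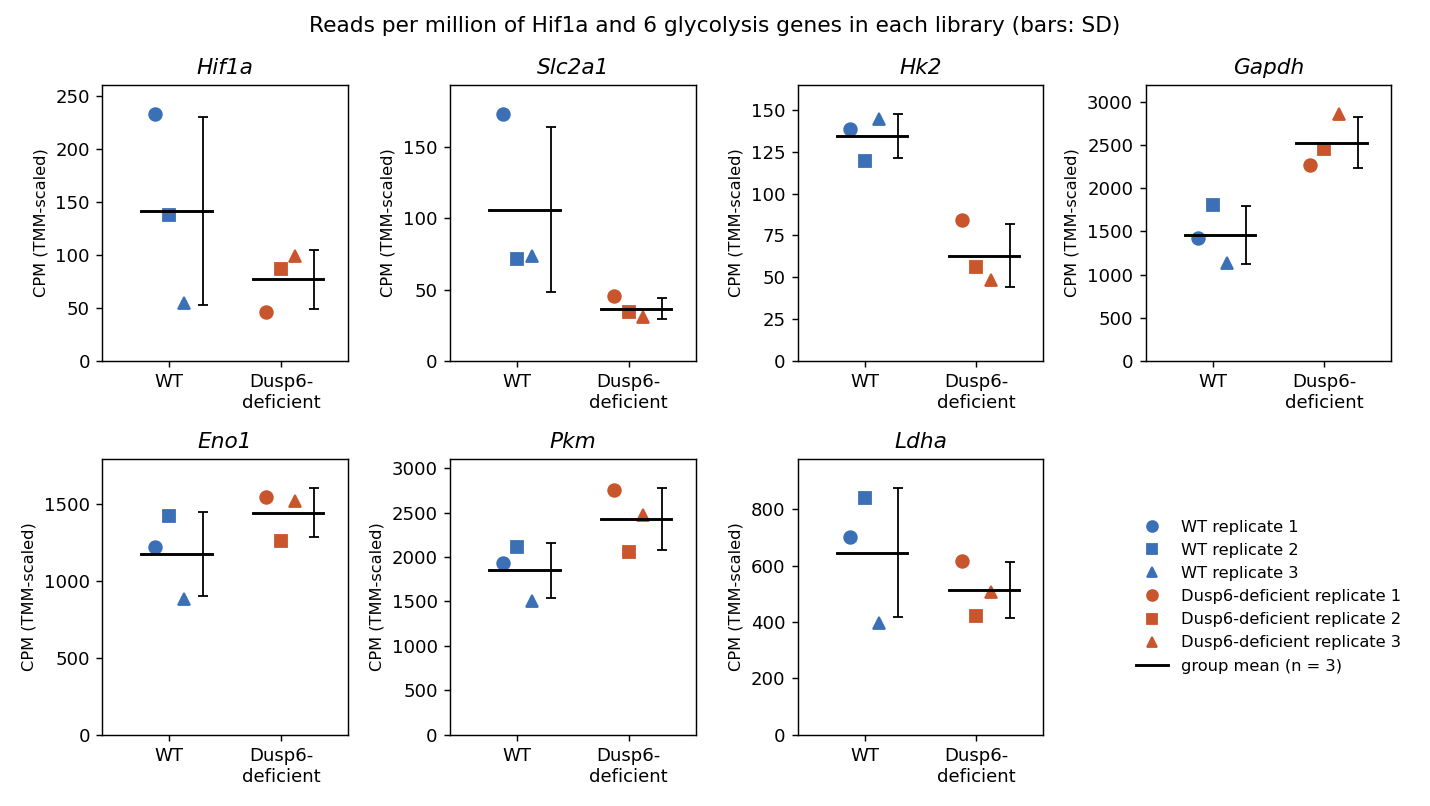
CPM (vertical axis, from 0, TMM-scaled) of each gene in the 3 WT and 3 Dusp6-deficient libraries, with a horizontal line at the group mean and a bar of 1 SD. Slc2a1 and Hk2 lie lower and Gapdh higher in every Dusp6-deficient library than in any WT library, while the other 4 genes overlap.

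Hif1a (ENSRNOG00000008292), the regulator, had 233, 137 and 54.6 CPM in WT replicates 1, 2 and 3. In Dusp6-deficient replicates 1, 2 and 3 it had 45.8, 87.1 and 98.8 CPM. WT replicate 1 was the highest library and Dusp6-deficient replicate 1 the lowest, but WT replicate 3 lay below 2 of the 3 Dusp6-deficient libraries, so the groups overlapped. The means were 142 ± 89.2 CPM in WT and 77.2 ± 27.9 CPM in Dusp6-deficient macrophages (SD, n = 3). The log2 fold change of Dusp6-deficient over WT was -0.88 (SE 0.480, 95% interval -1.96 to 0.21), with an adjusted p of 0.245 in edgeR's quasi-likelihood test. The interval holds both no difference and a decrease larger than that of Slc2a1, so these libraries do not settle whether Hif1a mRNA differed. The WT libraries lay far apart. The WT SD of Hif1a was 1.06 on the log2 CPM scale, against a median of 0.17 over the 4105 genes whose log2 CPM averaged 5 or more, and 1.63% of those genes had a larger one. Leaving out libraries moved the log2 fold change to -0.35 without WT replicate 1 and -1.31 without WT replicate 3, with adjusted p of 0.664 and 0.0837 in edgeR. Without Dusp6-deficient replicate 1 it was -0.66, with an adjusted p of 0.375.

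Slc2a1 (ENSRNOG00000007284) encodes GLUT1, the transporter that brings glucose into the cell. It had 173, 71.8 and 73.8 CPM in WT replicates 1, 2 and 3. In Dusp6-deficient replicates 1, 2 and 3 it had 45.2, 34.1 and 30.7 CPM. Each Dusp6-deficient library lay below each WT library, and WT replicate 1 stood at more than the level of replicates 2 and 3 put together. This gene rested on 1013 to 2911 counts per library in WT and 384 to 789 in Dusp6-deficient macrophages, so counting error was small beside the spread between libraries. The means were 106 ± 57.8 and 36.7 ± 7.57 CPM (SD, n = 3). Its log2 fold change was -1.53 (SE 0.359, 95% interval -2.35 to -0.72), with an adjusted p of 0.0387 in edgeR's quasi-likelihood test. Of the 12756 genes tested, 366 had a lower log2 fold change.

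Hk2 (ENSRNOG00000006116) encodes hexokinase 2, which phosphorylates glucose and so traps it in the cell. It had 139, 119 and 144.5 CPM in WT replicates 1, 2 and 3. In Dusp6-deficient replicates 1, 2 and 3 it had 84.1, 56.1 and 48.3 CPM. The WT libraries were close to each other, with a coefficient of variation of 9.80%, and Dusp6-deficient replicate 1 was the library of its group nearest to them. The means were 134 ± 13.2 and 62.8 ± 18.8 CPM (SD, n = 3). Its log2 fold change was -1.09 (SE 0.239, 95% interval -1.63 to -0.55), with an adjusted p of 0.0318 in edgeR's quasi-likelihood test. That value is near the threshold of 1, and 854 of the genes tested had a lower one.

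Both calls depended on which libraries entered the fit. Without Dusp6-deficient replicate 1, the library between the groups, Slc2a1 had a log2 fold change of -1.76 and Hk2 of -1.41, with adjusted p of 0.0234 and 0.00369 in edgeR, and both were called lower, against 7.39% of the genes tested in that fit. Without any one of the other 5 libraries neither gene was called. The log2 fold change of Slc2a1 was then -1.02, -1.75 and -1.77 without WT replicates 1, 2 and 3, and -1.49 and -1.45 without Dusp6-deficient replicates 2 and 3. Its adjusted p in edgeR was 0.0988, 0.0756, 0.0564, 0.128 and 0.161 in the same order. For Hk2 the log2 fold change was -1.10, -1.17, -1.07, -1.02 and -0.96, and the adjusted p in edgeR was 0.108, 0.0797, 0.0806, 0.125 and 0.1415. In edgeR the unadjusted p of both genes stayed at or under 0.0119 in all 6 of these fits. An unadjusted p under 0.05 was common in them. It was found for 2656 of 13261 genes without Dusp6-deficient replicate 3 and 5612 of 13103 without Dusp6-deficient replicate 1. The total number of genes called was 18, 13, 148, 8 and 7 in the 5 fits that lost both calls, against 717 with every library. DESeq2 on all 6 libraries also called both genes lower, against 3.51% of the 18721 genes it tested, which include genes of low count that the edgeR fits left out.

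**Figure D2:**
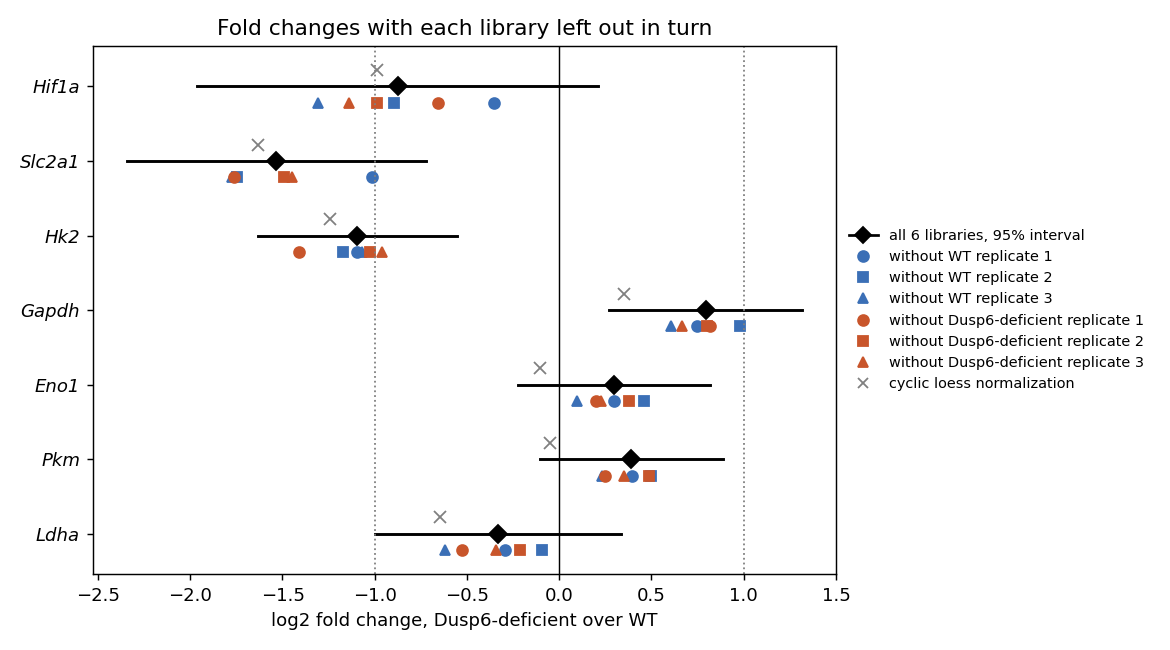
Log2 fold change of Dusp6-deficient over WT (horizontal axis) for each gene, with black diamonds and 95% intervals from all 6 libraries, coloured points for the value without 1 library, and grey crosses for cyclic loess normalization. Slc2a1 stays between -1.77 and -1.02 and Hk2 between -1.41 and -0.96 when 1 library is left out, whereas under cyclic loess Gapdh moves to 0.35, Eno1 to -0.10 and Pkm to -0.050.

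Gapdh (ENSRNOG00000018630) encodes glyceraldehyde-3-phosphate dehydrogenase, the enzyme of the NADH-forming step, and is often used as a reference gene. It had 1427, 1810 and 1136 CPM in WT replicates 1, 2 and 3. In Dusp6-deficient replicates 1, 2 and 3 it had 2274, 2459 and 2854 CPM. All 3 Dusp6-deficient libraries lay above all 3 WT libraries, and replicate 1, which stood between the groups on the first principal component, was here well above WT. The means were 1458 ± 338 and 2529 ± 296 CPM (SD, n = 3). The log2 fold change was 0.79 (SE 0.230, 95% interval 0.272 to 1.317), with an adjusted p of 0.0630 in edgeR's quasi-likelihood test, so Gapdh was not called. Its adjusted p was 0.0228 in DESeq2 and 0.0346 in edgeR without Dusp6-deficient replicate 1, with log2 fold changes of 0.76 and 0.82 that are under the threshold of 1. Many more genes passed in those fits, with 1299 and 2051 called by both thresholds against 717 in the main fit. The share of all genes passing the adjusted p alone was not counted in them. Over the alternatives the adjusted p of Gapdh ranged from 0.0228 to 0.253. The size of the difference depended on the normalization, since cyclic loess normalization, added after the data were seen, gave a log2 fold change of 0.35 with an adjusted p of 0.253 in edgeR. Processed copies of Gapdh that are nearly identical to it are known in the rat genome, as are copies of other glycolysis genes. How reads with several matching places were handled, and whether strand was used, is not given in the sources used here, so the counts of Gapdh, Eno1, Pkm and Ldha are uncertain to that extent.

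Eno1 (ENSRNOG00000017895) encodes enolase 1, which forms phosphoenolpyruvate. It had 1220, 1423 and 883 CPM in WT replicates 1, 2 and 3 and 1549, 1262 and 1524 CPM in Dusp6-deficient replicates 1, 2 and 3. WT replicate 3 was the lowest library, and WT replicate 2 lay above Dusp6-deficient replicate 2, so the groups overlapped. Dusp6-deficient over WT gave a log2 fold change of 0.30 (SE 0.229), with an adjusted p of 0.406 in edgeR's quasi-likelihood test. Pkm (ENSRNOG00000011329) encodes the muscle-type pyruvate kinase, which makes pyruvate. It had 1930, 2117 and 1506 CPM in the WT replicates and 2752, 2060 and 2473 CPM in the Dusp6-deficient ones. The overlap was again between WT replicate 2 and Dusp6-deficient replicate 2. Its log2 fold change was 0.39 (SE 0.218), with an adjusted p of 0.253 in edgeR's quasi-likelihood test. For Eno1 and Pkm even the sign depended on the normalization, since cyclic loess gave -0.10 and -0.050. Without Dusp6-deficient replicate 1 the log2 fold changes were 0.20 for Eno1 and 0.25 for Pkm. Without WT replicate 3 they were 0.096 and 0.23, and without WT replicate 2 they were 0.46 and 0.50, none of them past the test.

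Ldha (ENSRNOG00000013009) encodes the lactate dehydrogenase subunit that favours the making of lactate. It had 702, 842 and 395 CPM in WT replicates 1, 2 and 3. In Dusp6-deficient replicates 1, 2 and 3 it had 617, 419.5 and 506 CPM. WT replicate 3 was the lowest of all 6 libraries and the other WT libraries were the highest, so the Dusp6-deficient libraries lay inside the WT range. The log2 fold change was -0.33 (SE 0.294, 95% interval -0.997 to 0.337), with an adjusted p of 0.472 in edgeR's quasi-likelihood test. Single libraries and the normalization moved it widely. It was -0.093 without WT replicate 2, -0.62 without WT replicate 3, -0.53 without Dusp6-deficient replicate 1 and -0.65 under cyclic loess, and the adjusted p in edgeR was 0.882, 0.1803, 0.247 and 0.149 in that order. WT replicate 3 was also the lowest WT library for Hif1a, Gapdh, Eno1 and Pkm, but it was the highest for Hk2. It also had the smallest total count of the 6 libraries. With all libraries thinned to that total, the log2 fold changes were -0.90 for Hif1a, -1.10 for Hk2, 0.76 for Gapdh, 0.27 for Eno1, 0.36 for Pkm and -0.36 for Ldha, close to those at full depth.

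**Figure D3:**
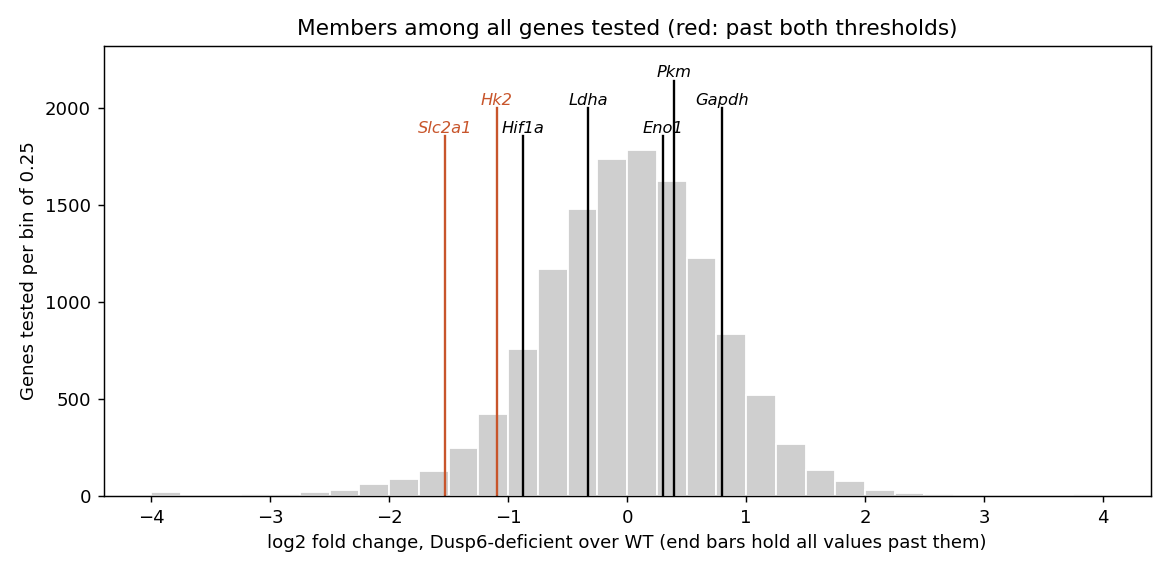
Number of genes (vertical axis) per bin of log2 fold change of Dusp6-deficient over WT (horizontal axis) for the 12756 genes tested, with lines at the 7 genes and the called ones in red. Slc2a1 at -1.53 and Hk2 at -1.09 lie in the lower tail, Gapdh at 0.79 in the upper part, and Eno1 (0.30), Pkm (0.39) and Ldha (-0.33) near the middle.

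Because the TMM factors differed between the genotypes, the fold changes were also taken without scaling beyond the total count, a setting added after the data were seen. The median log2 fold change of all genes then moved from 0.024 to -0.21. The log2 fold change was -1.74 for Slc2a1, -1.31 for Hk2 and 0.56 for Gapdh in that fit, and Slc2a1 and Hk2 were called lower in it too. Relative to the median gene these are -1.54, -1.10 and 0.77, which nearly equal the distances under TMM by construction, since leaving out the factors shifts all genes of a library alike. The share of the called genes that were higher went from 61.6% (442 higher, 275 lower) to 29.2% (170 higher, 412 lower) without scaling, and was 50.2% (348 higher, 345 lower) under upper-quartile normalization. It was 57.9% under RLE and 53% under cyclic loess. Among these normalizations, in edgeR with all 6 libraries, lower calls thus outnumbered higher ones only without scaling. DESeq2 called 642 genes higher and 657 lower. Of the edgeR fits that leave out 1 library, only that without Dusp6-deficient replicate 1 had more higher calls (1083 higher, 968 lower). Slc2a1 and Hk2 were lower and Gapdh was higher under each of TMM, RLE, upper-quartile, cyclic loess and no scaling, with Gapdh lowest at 0.35 under cyclic loess. Leaving out the scaling could not turn their signs, since the shift was smaller than each of their fold changes.

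Ratios between the counts of a pair of genes within a library do not depend on any scaling of the library. Per 1000 Gapdh reads, WT replicates 1, 2 and 3 held 97.1, 65.9 and 127 Hk2 reads. Dusp6-deficient replicates 1, 2 and 3 held 37.0, 22.8 and 16.9. The genotypes were apart, and the mean log2 ratio of Hk2 to Gapdh was -3.42 ± 0.48 in WT and -5.37 ± 0.57 in Dusp6-deficient macrophages (SD, n = 3), a difference of -1.95. For Slc2a1 there were 121, 39.6 and 65.0 reads per 1000 Gapdh reads in the WT replicates and 19.9, 13.9 and 10.8 in the Dusp6-deficient ones. This gap was -2.24 on the log2 scale. Since Slc2a1 and Hk2 were lower and Gapdh higher in every Dusp6-deficient library, these 2 ratios had to separate, and they are given as a description of the size of the gap.

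As a description of genes already seen to be lower, the log2 ratios of Slc2a1 and of Hk2 to Gapdh, Eno1, Pkm and Ldha did not overlap between the genotypes in 8 of 8 pairs, against 32.9% of all pairs of genes with at least 10 counts in every library, with differences from -2.24 for Slc2a1 to Gapdh to -0.85 for Hk2 to Ldha. The ratios to Ldha were barely apart, with WT replicate 2 at -3.55 and Dusp6-deficient replicate 2 at -3.62 for Slc2a1, and WT replicate 2 at -2.82 and Dusp6-deficient replicate 1 at -2.88 for Hk2. The ratio of Slc2a1 to Hk2 itself overlapped, with a difference of -0.29. In the Dusp6-deficient libraries it lay between -0.90 and -0.65, and in WT it was 0.32 in replicate 1 and -0.73 and -0.97 in replicates 2 and 3. Counts of Slc2a1 and Hk2 therefore kept a similar ratio in 5 of the 6 libraries, and WT replicate 1 was the exception. Over all pairs of the 7 genes, 13 of 21 ratios (61.9%) did not overlap between the genotypes, against the same 32.9%. The 21 pairs share genes and are not independent.

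**Figure D4:**
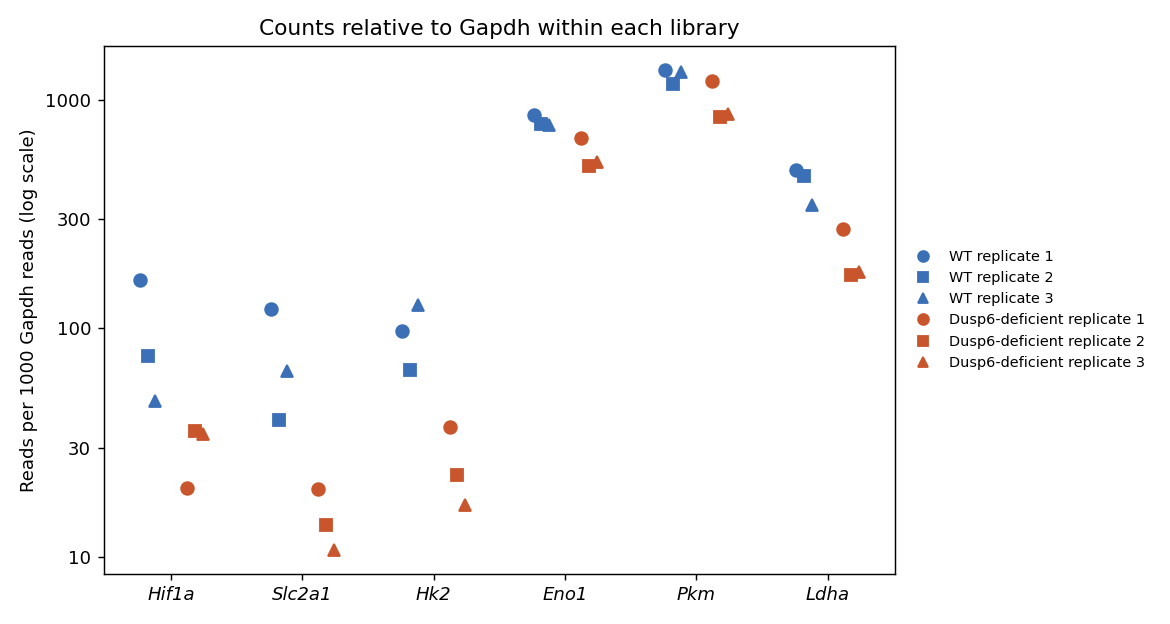
Reads of 6 genes per 1000 Gapdh reads (vertical axis, log scale) within each WT (blue) and Dusp6-deficient (red) library. Hif1a, Slc2a1, Hk2, Eno1 and Ldha lie lower in every Dusp6-deficient library than in any WT library, and Pkm overlaps through replicate 1 with 1210 in Dusp6-deficient against 1170 in WT replicate 2.

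Among the later enzymes, 4 of the 6 ratios did not overlap between the genotypes, those of Gapdh, Eno1 and Pkm to Ldha and that of Gapdh to Eno1, against 32.9% of all pairs of genes. These 6 pairs share 4 genes, and nothing is read from their count. The log2 ratio of Gapdh to Ldha was 1.22 ± 0.27 in WT and 2.31 ± 0.37 in Dusp6-deficient macrophages (SD, n = 3). That of Eno1 to Ldha was 0.905 ± 0.223 and 1.502 ± 0.150, and that of Pkm to Ldha was 1.57 ± 0.32 and 2.25 ± 0.08. That of Gapdh to Eno1 was 0.31 ± 0.08 and 0.81 ± 0.22. These ratios were higher in Dusp6-deficient macrophages without overlap. For the ratios to Ldha, WT replicate 3, with 1.52, 1.16 and 1.93, was the WT library nearest to the Dusp6-deficient ones each time. Eno1 and Pkm moved together across the libraries. Their log2 ratio was -0.67 ± 0.10 in WT and -0.74 ± 0.07 in Dusp6-deficient macrophages, and it overlapped, as did the ratio of Gapdh to Pkm. Of the 6 ratios of Hif1a to the other genes, only that to Gapdh did not overlap, with a difference of -1.53. That is 1 of 6, no more than the 32.9% of all pairs of genes.

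Together, the 7 genes held 0.620%, 0.685% and 0.476% of all counts in WT replicates 1, 2 and 3. They held 0.745%, 0.557% and 0.666% in Dusp6-deficient replicates 1, 2 and 3. The genotypes overlapped, with means of 0.594% ± 0.107 and 0.656% ± 0.0942 (SD, n = 3). Most of these counts come from Gapdh, Eno1 and Pkm, so the share says little of Slc2a1 and Hk2. The libraries of a genotype also differed in which genes were high. WT replicate 1 was highest for Hif1a and Slc2a1, WT replicate 2 for Gapdh, Eno1, Pkm and Ldha, and WT replicate 3 for Hk2.

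Since Slc2a1 and Hk2 fell together while Gapdh was higher without being called, the 250 bases before their start sites are shown. They were taken from RefSeq on build GRCr8. All 7 genes matched by symbol, with 8 windows in all, since Eno1 has a pair of start sites. The core that HIF-1 is known to bind, with the letters ACGTG or, in its other form, GCGTG, was searched on both strands. A match on the other strand appears as its reverse complement. The first form overlaps its own reverse complement where a C stands before it, and such a place gives 2 matches. Capitals mark the matches. The Slc2a1 window lies at chr5:138002272-138002521 on the plus strand, the Hk2 window at chr4:116841276-116841525 on the minus strand and the Gapdh window at chr4:159652468-159652717 on the minus strand, each written 5′ to 3′ along its gene.
Slc2a1: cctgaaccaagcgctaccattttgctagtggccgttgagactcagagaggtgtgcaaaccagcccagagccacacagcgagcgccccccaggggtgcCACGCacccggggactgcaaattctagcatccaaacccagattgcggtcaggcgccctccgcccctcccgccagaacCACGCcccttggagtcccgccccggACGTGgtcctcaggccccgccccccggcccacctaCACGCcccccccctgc
Hk2: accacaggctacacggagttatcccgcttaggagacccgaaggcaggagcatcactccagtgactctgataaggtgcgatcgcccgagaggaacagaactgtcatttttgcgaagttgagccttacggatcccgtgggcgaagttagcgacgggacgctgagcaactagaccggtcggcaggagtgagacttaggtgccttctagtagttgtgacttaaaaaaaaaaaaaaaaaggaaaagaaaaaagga
Gapdh: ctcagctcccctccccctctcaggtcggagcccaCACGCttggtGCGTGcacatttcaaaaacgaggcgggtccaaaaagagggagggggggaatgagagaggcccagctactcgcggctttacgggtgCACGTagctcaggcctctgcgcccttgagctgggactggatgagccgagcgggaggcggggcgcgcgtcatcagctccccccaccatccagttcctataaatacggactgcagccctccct
The Slc2a1 window held 4 matches, which begin 153, 76, 51 and 16 bases before the start site. The Gapdh window held 3, which begin 216, 206 and 121 bases before it, and the Hk2 window held 0. Among the others, Ldha had 4 matches, Hif1a 3, Eno1 1 in each of its windows and Pkm 0. The matches of Ldha at 87 and 86 bases overlap at the same place, as do those of Hif1a at 229 and 228 bases. Of all 33469 promoter windows of this length, 36.7% held at least 1 match and 6.21% held at least 3. The genes that fell thus had 4 and 0 matches, and Gapdh and Ldha, which did not pass the test, had 3 and 4. A match describes the letters and is neither a binding site nor a cause, and a window without one says only that these letters are not in it.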

How the data were processed

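Reads of 3 WT and 3 Dusp6-deficient libraries were processed for the authors by their sequencing provider, per the study's methods. The submitters' processing notes name Trim Galore, HISAT2, the rat genome Rnor_6.0 (rn6) and featureCounts 1.5.0-p3. The deposited values are raw read counts per gene, not normalized. The annotation release, the strand setting and the handling of reads with several matching places are not given in the sources used here. Columns were matched to samples by name.

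The analysis used R 4.3.3 and edgeR 4.0.16 (filterByExpr defaults, TMM, quasi-likelihood test of genotype over 12756 genes), limma 3.58.1 and DESeq2 1.42.0. A gene was called where its log2 fold change exceeded 1 in size and its p, adjusted by Benjamini-Hochberg, was under 0.05. SEs came from the F statistic. Log2 CPM used a prior count of 2. The scripts were tested on simulated data. Totals ran from 12089585 to 17274938 counts, where 3 counts equal 0.174 to 0.248 CPM of the unscaled totals (other CPM values use TMM-scaled library sizes), for counting error only.

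All 7 genes of the set were to be named. Dusp6, wider gene lists, cell type markers and the genes most like Hif1a were planned as well, but identifiers could not be paired with symbols, so they were not analysed here. The members and lists were chosen with earlier results of these data known. Alternatives were another test, other normalizations and filters, thinning to the smallest library, a replicate block, no fold change threshold, leaving out the 50 genes of the highest count and leaving out each library in turn. Cyclic loess, no scaling beyond the total count, and leaving out libraries for the share of all counts were added after the data were seen.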

Additional observations from a re-analysis of the deposited data

How the results depend on the processing

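Slc2a1 and Hk2 kept their direction under all 16 alternatives that give a fold change and were called under 11 of them, and the 5 others each leave out 1 library. With 1 library left out, the log2 fold change of Slc2a1 ranged from -1.77 to -1.02 and that of Hk2 from -1.41 to -0.96, between 0 and 2 of the 7 genes were called, and the number of genes called ranged from 7 to 2051, against 717. The cause of these losses was not tested. DESeq2 called 1299 genes against 717. Under cyclic loess normalization, added after the data were seen, Eno1 changed sign to -0.10 and Pkm to -0.050, and the cause was not tested. Of 112 comparisons of a gene with an alternative, 100 had the same sign and the same call by both thresholds combined, 10 lost a call and 2 changed sign. Among the 100, Gapdh passed the adjusted p alone under DESeq2 (0.0228) and in edgeR without Dusp6-deficient replicate 1 (0.0346). The share of all genes passing the adjusted p alone in those fits was not counted. Hif1a passed the fold threshold alone without scaling (-1.12), without WT replicate 3 (-1.31) and without Dusp6-deficient replicate 3 (-1.14). The labels do not say whether a WT and a Dusp6-deficient library with the same replicate number were paired or processed together. Measured as departures from the mean of each genotype, such libraries correlated at 0.11, -0.12 and -0.14 for replicates 1, 2 and 3. With 3 libraries per genotype these departures depend on each other, so the correlations cannot decide whether the libraries were paired. With the number as a replicate block, 486 genes were called, and the log2 fold change was -1.43 for Slc2a1 and -1.13 for Hk2, both called. The difference in the share of all counts, Dusp6-deficient minus WT, was 0.0621 percentage points and ranged from 0.00311 to 0.112 with 1 library left out. Alternatives planned for the wider gene lists were not run, since the lists could not be matched. All 7 genes had at least 384 counts in every library, so depth limited these comparisons less than the spread between 3 libraries.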
